A study of Mus musculus with 563 samples.

Results

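The Gimap genes, which encode GTPases of the immunity-associated protein family, were followed in single hematopoietic stem cells (HSCs) from old and young mice. The members are Gimap1, Gimap3, Gimap4, Gimap5, Gimap6, Gimap7, Gimap8 and Gimap9, which are 8 of the 46078 gene entries in the deposited count tables and were found by symbol through their Ensembl identifiers. The family was chosen by measured values of these same cells: its levels in the 4 groups, the share of cells with a read and the cell-to-cell co-variation were known when it was picked. The values below are therefore a description, and no test rests on them. The cells came from bone marrow of Gfp-Lc3 mice, whose transgene joins green fluorescent protein to the autophagosome protein LC3, and were isolated at steady state. Old HSCs were labelled LO, MID or HI, young HSCs carried no such label, and the labels do not define these names beyond a sort in which the GFP-LC3 level was recorded. All groups carry the transgene, and its promoter, the ages in months, the sort gate and the number of animals are not given in the sources used here.

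Of 563 cells, 533 were kept, 399 of them old, spread over 2 count tables. LO had 65 and 71 kept cells in the first and the second table, MID 68 and 66, HI 68 and 61, and young 63 and 71. A kept cell had between 50339 and 1064879 reads in nuclear genes. Since the labels tie no cell to an animal, a group is treated as 1 sample per table, and no p-value between groups is given. Old cells with at least 20 reads of Y-linked genes numbered 180 of 201 in the first table and 176 of 198 in the second. Young cells differed between the tables: 57 of 63 had that many Y-linked reads in the first table, and 71 of 71 had at least 20 Xist reads in the second, so that age and sex cannot be told apart in the second table. Of HSC genes, after each cell was thinned to 100000 reads, Hlf was read in 99.4%, Kit in 99.8%, Mecom in 96.8%, Ly6a in 78.6%, Procr in 72.3%, Fgd5 in 68.1% and Slamf1 in 64.7% of 501 cells. Cd3e and Cd3g of T cells and Ncr1 of NK cells were each read in 0 of 501 thinned cells, which allows a share of up to 0.599%. Other genes of the T and NK cell lists, such as Lck, Klrb1c and Nkg7, were read. After thinning, 5, 1 and 1 cells had 3 or more markers of the T, B and NK cell lists. Before thinning, 222 of the 533 kept cells had 3 or more lymphocyte markers. Cd34 of progenitors was read in 65.1% and Pecam1 of endothelial cells in 52.9% of thinned cells. Of the thinned cells, 94.4% had 3 or more of 11 endothelial markers.

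GIMAP proteins are membrane-bound GTPases, best known from lymphocytes, in which they regulate survival and organelle traffic. They sit on endoplasmic reticulum, mitochondria, lysosomes and autophagosomes, and several pair with one another through their GTPase domains. In mice, loss of GIMAP5 shortens the life of T cells and impairs HSCs, loss of GIMAP1 depletes mature T and B cells, and GIMAP6 has been found on autophagosomes together with the LC3 relative GABARAPL2.

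The 8 genes lie side by side on chromosome 6 (mm10/GRCm38, GENCODE M21) in a cluster of 123.6 kb, chr6:48647234-48770851. Along the chromosome the order is Gimap8, Gimap9, Gimap4, Gimap6, Gimap7, Gimap1, Gimap5 and Gimap3, with Gimap6 and Gimap3 on the minus strand and the others on the plus strand. Promoters are shown for 3 members on which the results turn: Gimap6, which had the most reads; Gimap8, the other member that met the size rule between old and young cells; and Gimap5, which varied together with Gimap6 from cell to cell. Each sequence is from RefSeq (GRCm38.p6), runs 5′ to 3′ on the gene's own strand from 250 bases before to 50 bases after the start, and has in capitals every match on either strand to the 10 motifs searched. In that order, Gimap6, Gimap8 (the first of 2 listed starts) and Gimap5, these lie at chr6:48708195-48708494 (minus strand), chr6:48646984-48647283 (plus strand) and chr6:48745947-48746246 (plus strand).
Gimap6: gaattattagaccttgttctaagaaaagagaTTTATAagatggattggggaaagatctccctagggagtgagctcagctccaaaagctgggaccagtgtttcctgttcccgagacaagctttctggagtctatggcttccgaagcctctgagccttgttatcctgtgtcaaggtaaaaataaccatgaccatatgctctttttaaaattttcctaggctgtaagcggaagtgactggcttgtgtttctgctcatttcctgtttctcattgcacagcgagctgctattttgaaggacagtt
Gimap8: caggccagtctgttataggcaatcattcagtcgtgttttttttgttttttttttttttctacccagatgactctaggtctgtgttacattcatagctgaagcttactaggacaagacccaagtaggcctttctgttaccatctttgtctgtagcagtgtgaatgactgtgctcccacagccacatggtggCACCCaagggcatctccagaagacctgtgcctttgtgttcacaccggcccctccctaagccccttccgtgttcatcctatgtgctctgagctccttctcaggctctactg
Gimap5: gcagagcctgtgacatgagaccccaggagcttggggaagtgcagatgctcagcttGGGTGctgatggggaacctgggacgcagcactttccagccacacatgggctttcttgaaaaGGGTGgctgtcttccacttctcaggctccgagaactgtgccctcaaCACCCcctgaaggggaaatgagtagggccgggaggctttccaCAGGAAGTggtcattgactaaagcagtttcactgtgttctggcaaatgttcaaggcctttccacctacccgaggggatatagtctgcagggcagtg

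The motifs searched, on both strands, were the TATA box TATAAA, the ETS motif in the forms ACCGGAAG or CAGGAAGT, the RUNX motif in the forms TGTGGT or TGCGGT, the GATA motif AGATAA, the KLF motif CACCC, the AP-1 motif TGACTCA, the octamer ATTTGCAT and the interferon-stimulated response element. None of these contains another. The 8 genes had 9 promoters in the table, since Gimap8 has a pair of overlapping ones. Gimap6 held TATAAA 219 to 214 bases before the start, as did 13.6% of all 32851 promoters of the table. Gimap5 held CAGGAAGT 46 to 39 bases before the start; this motif was in 2 of 9 Gimap promoters, the other being that of Gimap9, and in 3.33% of all promoters. CACCC was in 6 of 9 Gimap promoters against 57.5% of all, and TGTGGT in 3 of 9 (Gimap4, Gimap7 and Gimap1) against 16.8%. The GATA, interferon, AP-1 and octamer motifs were in 0 of 9, against 11.2%, 3.44%, 5.20% and 1.73% of all promoters. In these exact letters, the promoters of Gimap6 and Gimap5 shared none of the motifs. Other forms of the motifs were not searched, and nothing on how the 2 genes vary together is read from this.

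All 8 members had lower levels in old than in young HSCs in both tables. Of the 10721 genes that passed the level filter, 27.3% were lower in both, as were all 5 members that passed it. That filter took genes averaging 10 CPM or more across groups that were read in at least 10% of kept cells. Levels are reads per 1000000 nuclear gene reads (CPM), and differences are on the log2(CPM + 1) scale, taken within each table and then averaged. The filter left 5 of the 8 members: Gimap1, Gimap5, Gimap6, Gimap8 and Gimap9. To meet the size rule a gene had to differ by 1 or more on the log2 scale and by 0.58 or more, in the same direction, within each table, to reach 20 CPM and be read in 20% of cells in the higher group, and to have no cell with over 20% of its reads. Gimap6 and Gimap8 met it as lower in old cells, and 0.672% of genes did so. Against young cells, the same genes, Gimap6 and Gimap8, were lower by the size rule in LO, MID and HI cells taken singly, where 1.44%, 1.11% and 1.38% of genes were; these comparisons share the young cells. Gimap6 stood at -1.20, -1.18 and -1.68 in them and Gimap8 at -1.09, -1.15 and -1.24. Since the members were picked with this difference known, nothing is read from these counts. Summed over the 8 genes, the family reached 656.7 CPM in old cells and 1242 CPM in young cells, a log2 difference of -0.92 (-0.86 and -0.97 in the first and second table), while the median over all genes was 0.02. Fewer cells with a gene on and less RNA per cell both lower such a sum, so shares of cells are given beside the levels.

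Gimap6, the member with ties to autophagosomes, carried most of this difference. Its level was 267.5 and 294.1 CPM in LO cells, 272.6 and 297.7 CPM in MID cells, 222.7 and 182.0 CPM in HI cells, and 625.1 and 668.3 CPM in young cells, in the first and second table. Every old value lay below both young values. The log2 difference between old and young cells was -1.33 (-1.29 in the first table and -1.37 in the second). Both ages had mostly Y-positive cells in the first table, and the part of sex in the difference was not tested. It rests on 32632 reads from old and 27099 reads from young cells. After thinning, Gimap6 was read in 88.2% of 373 old cells (95% Clopper-Pearson interval 84.5 to 91.3) and in 97.7% of the young cells (93.3 to 99.5), of which 59 and 69 remained in the tables. Most old cells therefore still had Gimap6 reads, at a lower level. Gimap6 made up 53.8% and 50.6% of the family's reads in young cells, and between 36.1% and 41.6% in the old groups.

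Gimap8, the longest GIMAP protein with several GTPase domains, was lower in old cells at a smaller level. It had 25.3 and 23.5 CPM in LO, 24.4 and 22.2 CPM in MID, 32.9 and 14.4 CPM in HI and 52.1 and 53.5 CPM in young cells. The young values stood above all old ones, and HI cells were furthest apart between the tables. The log2 difference between old and young was -1.14 (-0.90 and -1.37), and the gene was read in 39.7% of old and 50% of young thinned cells, where the old interval of 34.7 to 44.8 overlaps the young one of 41 to 59. It met the size rule in the second table alone and not in the first alone. Without the 222 kept cells that had reads of 3 or more lymphocyte markers before thinning, the difference was -0.81.

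**Figure D1:**
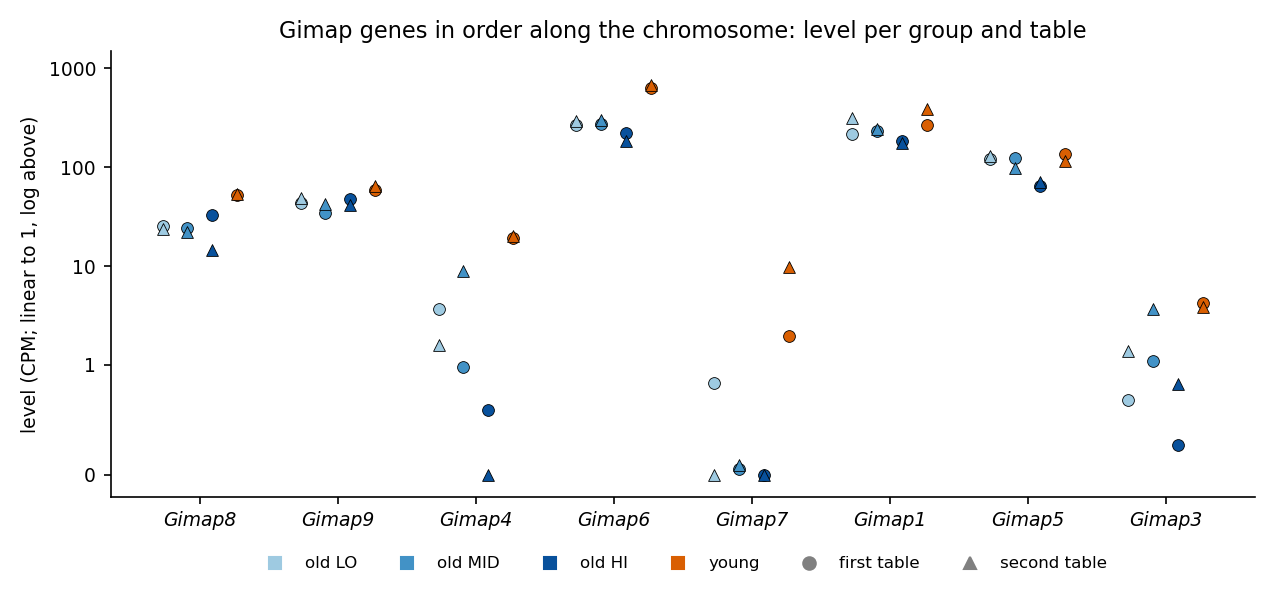
Level of each Gimap gene, in CPM (vertical axis linear up to 1 and log above), in LO, MID, HI and young cells, with a circle for the first and a triangle for the second table. Gimap6 stood at 625.1 and 668.3 CPM in young cells and at or below 297.7 CPM in every old group, whereas Gimap5 in LO and MID cells lay close to its young level.

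Gimap1, Gimap5 and Gimap9 were lower in old cells by less. Gimap1, needed for mature lymphocytes in mice, averaged 228.7 CPM in old and 325.6 CPM in young cells, a log2 difference of -0.49 (-0.32 and -0.65). Its second-table LO level of 316.5 CPM lay above the first-table young level of 265.5 CPM, so the groups overlap across tables. Gimap5, a lysosomal member that preserves HSCs and T cells, averaged 101.1 CPM in old and 126.4 CPM in young cells, a log2 difference of -0.32 (-0.40 and -0.23). LO and young cells hardly differed in it, at 124.1 and 126.4 CPM. Gimap9, a little-studied member, averaged 42.9 CPM in old and 61 CPM in young cells, a log2 difference of -0.50 (-0.47 and -0.52). The share of thinned cells with a Gimap9 read was 43.2% in old and 42.2% in young cells, with intervals that overlap, so the lower level did not come with a lower share at this depth.

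**Figure D2:**
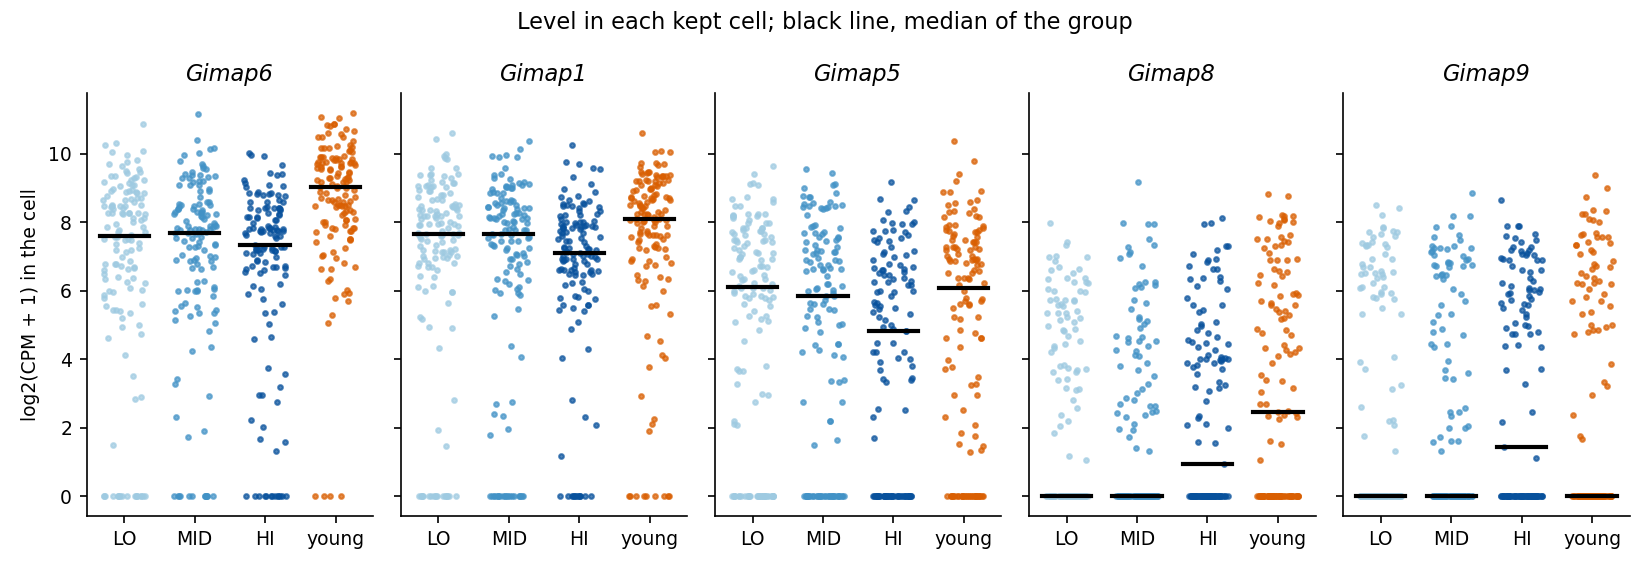
Level of the 5 members that passed the level filter in each kept cell, as log2(CPM + 1), with 1 panel a gene, points for cells and a black line at the group's median. Gimap6 was read in 355 of 399 kept old cells and in 97% of kept young cells, and the young cells sit higher; Gimap8 and Gimap9 have many cells at 0 in every group.

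Gimap4, Gimap7 and Gimap3 were read in few cells and did not pass the level filter. Gimap4, which speeds the death of T cells, was read in 9 of 373 old cells (2.41%) and in 13 young cells (10.2%) after thinning, with intervals of 1.11 to 4.53 and 5.52 to 16.7. Before thinning it was read in 5 LO, 6 MID and 2 HI cells and in 16 young cells. Its level was 2.63 CPM in old and 19.7 CPM in young cells. Both young tables stood near 20 CPM (19.2 and 20.3), and the highest old value was 8.93 CPM, in MID cells of the second table, where 55% of the reads came from 1 cell. In HI cells it had 15 reads in the first table, 93.3% of them from 1 cell, and 0 reads in the second.

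Gimap7, whose human protein stimulates the GTPase activity of another GIMAP, was read in 2 of 373 old cells (0.536%) and in 8 young cells (6.25%) after thinning. HI cells had 0 reads of it in either table, and finding it in 0 of their 65 and 58 thinned cells allows a share of up to 2.44%. Its young level of 5.86 CPM rests on 256 reads, 60.5% of which came from 1 cell of the second table. Without the cell with the most reads in each group and table, old cells stood at 0.00795 CPM and young cells at 1.88 CPM. Gimap3, the mouse relative of Gimap5, had 1.32 CPM in old and 4.03 CPM in young cells and was read in 6.43% and 9.38% of thinned cells. Old and young shares of Gimap3 overlapped in their intervals (4.17 to 9.42 and 4.94 to 15.8).

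Gimap4 and Gimap7 were each read in few young cells. Among kept young cells, 16 had Gimap4, 10 had Gimap7 and 1 had both. Genes read in so few cells would seldom share a cell even if read independently, so nothing is read from this overlap. Of the young cells with either gene, 24 were deep enough to be thinned. Among these, 0 had 3 or more markers of the T, B or NK cell lists, and Il7r was read in 0. Of the other thinned young cells, 0.96%, 0.96% and 0% had 3 or more T, B and NK cell markers. Il7r was read in 0 of those cells too, so nothing is read from the zeros. The 24 cells had reads of 9.38 of 14 HSC markers on average, against 8.89 in the other thinned young cells. Procr, an HSC surface receptor, was read in 79.2% of the 24 cells and 55.8% of the others. Flt3, a receptor of multipotent progenitors, was read in 37.5% of the 24 cells and 22.1% of the others, and 3 or more progenitor markers in 79.2% and 73.1%. Mki67, a proliferation marker, was read in 16.7% of the 24 cells and 39.4% of the others. These percentages rest on few cells and the class was chosen after its values were seen.

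Per cell, old HSCs had reads of 3.34 of the 8 members on average and young HSCs of 3.78, after thinning. At least 3 members were read in 76.9% of old cells (72.3 to 81.1) and 85.2% of young cells (77.8 to 90.8). At least 5 were read in 15.8% of old and 28.9% of young cells. No thinned cell had reads of more than 6.

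Levels of different genes can be set beside each other only per length, here the length of all annotated exon bases. For Gimap1 these are 3073 bases, of which 1966 overlap no other gene. Its place in the order below therefore depends on how many reads over shared bases were set aside as ambiguous, that is, given to no gene. If they were set aside, the values per kb of Gimap1 below are too low and its place could be higher. Per kilobase of exon, young cells stood highest for Gimap6 at 185.0 CPM per kb, followed by Gimap1 at 105.9, Gimap9 at 37.1, Gimap5 at 30.5, Gimap8 at 14.3 and Gimap4 at 10.7. With all exon bases as the length, HI cells had 58.8 CPM per kb of Gimap1 and 57.9 of Gimap6, and LO cells had 86.8 and 80.3. By that length the order of the 2 genes differed between the tables in both old groups, while Gimap6 led in both young tables. These orders may not hold for the 1966 bases of Gimap1 that overlap no other gene.

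Overlapping annotated transcripts limit what the Gimap1 counts hold. Gimap1os, an antisense RNA, and Gm28053, a readthrough gene, cover 36% of the exon bases of Gimap1, and the sources used here do not give the strand setting of the counting or how overlapping reads were assigned. Gimap1os itself had 15.4 CPM in old and 33.9 CPM in young cells, a log2 difference of -1.10 (-1.45 and -0.75), which met the size rule. Reads over the bases that Gimap1 and its antisense partner share can therefore not be told apart with certainty. Gimap3 and Gimap5 share stretches of sequence as well: 8.15% of the 50-base stretches of Gimap3 transcripts occur in other genes, mostly Gimap5, and the low Gimap3 counts are uncertain for that reason. Gimap4, Gimap8 and Gimap9 shared none, and Gimap6 0.170%.

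Genes around the cluster were lower in old cells about as often as genes at large. Of 43 other annotated genes within 300 kb of either end, 25 had an entry and 10 passed the level filter; 3 of these were lower and 5 higher in old cells in both tables (over all genes, 27.3% were lower and 31.3% higher). Gimap1os was the 1 that met the size rule. AI854703, just before Gimap8, had 26.5 CPM in old and 13.2 CPM in young cells, a log2 difference of 0.96 (1.10 and 0.82). Beyond Gimap3, the membrane genes Tmem176a and Tmem176b were also higher in old cells, by 0.51 (0.40 and 0.62) and 0.26 (0.27 and 0.24). Repin1 differed by 0.10 and Zfp467 by -0.39.

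Among the old groups, the family sum was lower in HI than in LO in both tables. It was 520.3 CPM in HI and 746.0 CPM in LO cells, a log2 difference of -0.52 (-0.29 and -0.74). Of the 8 members, 5 were lower in both tables: Gimap1, Gimap5 and Gimap6, which passed the level filter, and Gimap3 and Gimap4, which did not. Among genes past the filter, 28.7% were lower in both tables. The size rule, by which 0.784% of genes were lower, was met by 0 members. Gimap5 differed most among the 5 members past the filter, with 65.1 and 71.1 CPM in HI and 119.6 and 128.6 CPM in LO cells, a log2 difference of -0.86 (-0.87 and -0.85). HI stood below LO in both tables by about the same amount. Gimap1 differed by -0.53 (-0.23 and -0.83) and Gimap6 by -0.48 (-0.26 and -0.69). Gimap8 went opposite ways in the tables (0.37 and -0.67), as did Gimap9 (0.13 and -0.22). MID cells stood at 704.0 CPM and LO cells at 746.0 CPM, a difference of -0.08 whose sign differed between the tables (0.03 and -0.19), and 0 members met the size rule, by which 0.243% of genes were lower.

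HI cells also held more RNA per cell relative to the spike-in RNA added to each well. They had 68.1 and 72.6 nuclear gene reads per spike-in read, against 45.1 to 50.9 in the other groups. Scaled to spike-in reads, the median gene was 0.51 higher in HI than in LO cells and 0.28 higher in old than in young cells. On that scale the family difference between HI and LO cells was -0.02 (0.13 and -0.18), Gimap6 stood at 0.02 and Gimap1 at -0.04, and Gimap9 turned to 0.44. Gimap5 was still lower in HI cells in both tables, at -0.37 (-0.45 and -0.29). Between old and young cells Gimap6 was still lower at -1.11 (-1.12 and -1.10): it had 14 and 13.8 reads per 1000 spike-in reads in LO, 14 and 14.6 in MID, 15.7 and 12.6 in HI, and 31.7 and 29.3 in young cells. All old values of Gimap6 per spike-in read lay between 12.6 and 15.7, below both young values. Gimap8 stood at -0.89, Gimap1 at -0.26, Gimap9 at -0.23 and Gimap5 at -0.11 (-0.26 and 0.04), the last with opposite signs in the tables. This scaling was added after the data were seen.

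**Figure D3:**
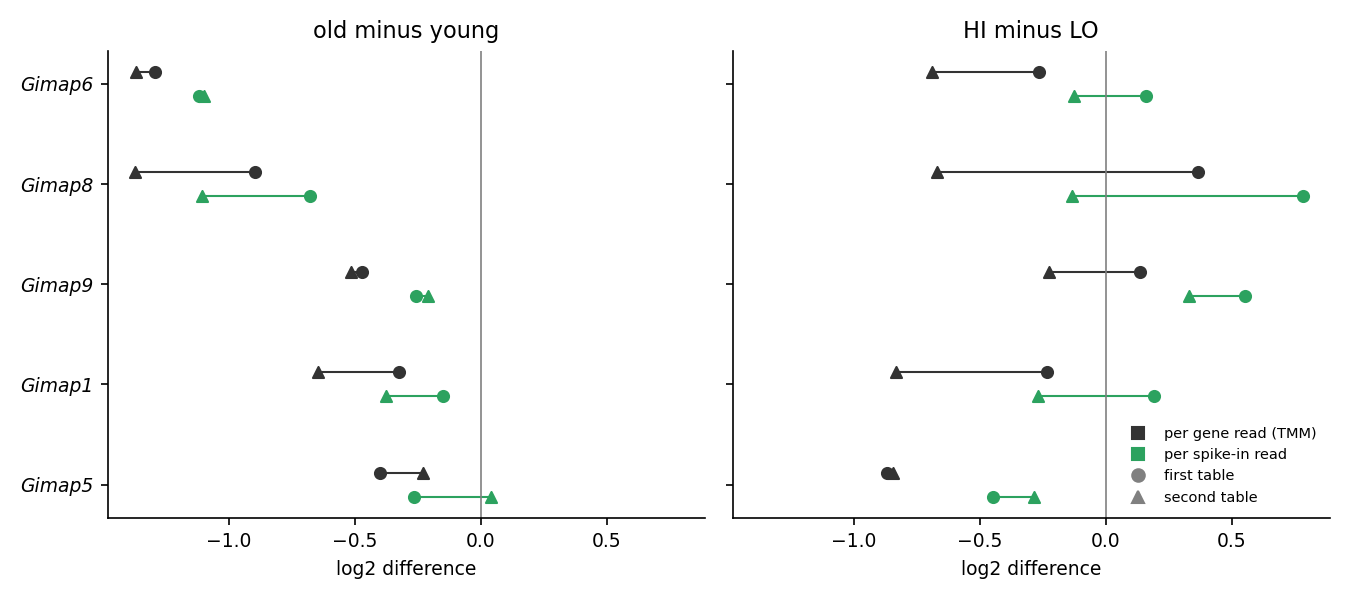
Log2 difference of the 5 members past the level filter, old minus young (left) and HI minus LO (right), with a circle for the first and a triangle for the second table, per gene read with TMM scaling (dark) and per spike-in read (green). Gimap6 lies at -1.33 and -1.11 on the 2 scales for old minus young, while Gimap6 and Gimap1 for HI minus LO lie near 0 per spike-in read.

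Cycling cells, here those with reads of 8 or more of 30 genes of the G2 and M phases, had lower family sums than the other cells of their group. Of 501 thinned cells 74 were in this class: 5 LO cells (4.07%), 10 MID cells (7.87%), 42 HI cells (34.1%) and 17 young cells (13.3%). Few cells lie just past the threshold, with 5 that had 8 or 9 of these genes. More lie just under it: a further 33 cells had 6 or 7 and count among the other cells, so a lower threshold would enlarge the class. In HI cells the family sum was 361.8 CPM in cycling and 618.6 CPM in the other cells. In young cells it was 733.6 CPM in cycling and 1358 CPM in the others, and in MID cells 284.7 and 753.4 CPM in the same order. Gimap5 was 33.7 CPM in cycling and 90.2 CPM in other HI cells, and 41 CPM in cycling and 144.7 CPM in other young cells. Gimap6 was 145.7 and 237.3 CPM in HI and 362.1 and 710.4 CPM in young cells. In LO cells the class holds 1 cell in the first table, whose family sum of 1244 CPM lay above the other LO cells, and 4 in the second, with 228.4 CPM.

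Without the cycling cells the family difference stood at -0.93 for old against young, and at -0.31 (-0.03 and -0.59) for HI against LO. The Gimap5 difference between HI and LO was -0.53 (-0.54 and -0.53) without them. That of Gimap1 was -0.26 with opposite signs in the tables (0.12 and -0.64), and Gimap6 between old and young was -1.35. The 32 kept cells too shallow to be thinned were not classed and stayed in for these differences. Within groups and tables, summed Gimap reads and the count of cell-cycle genes read in a cell had a mean Spearman rho of -0.22 (-0.42 to 0.02).

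**Figure D4:**
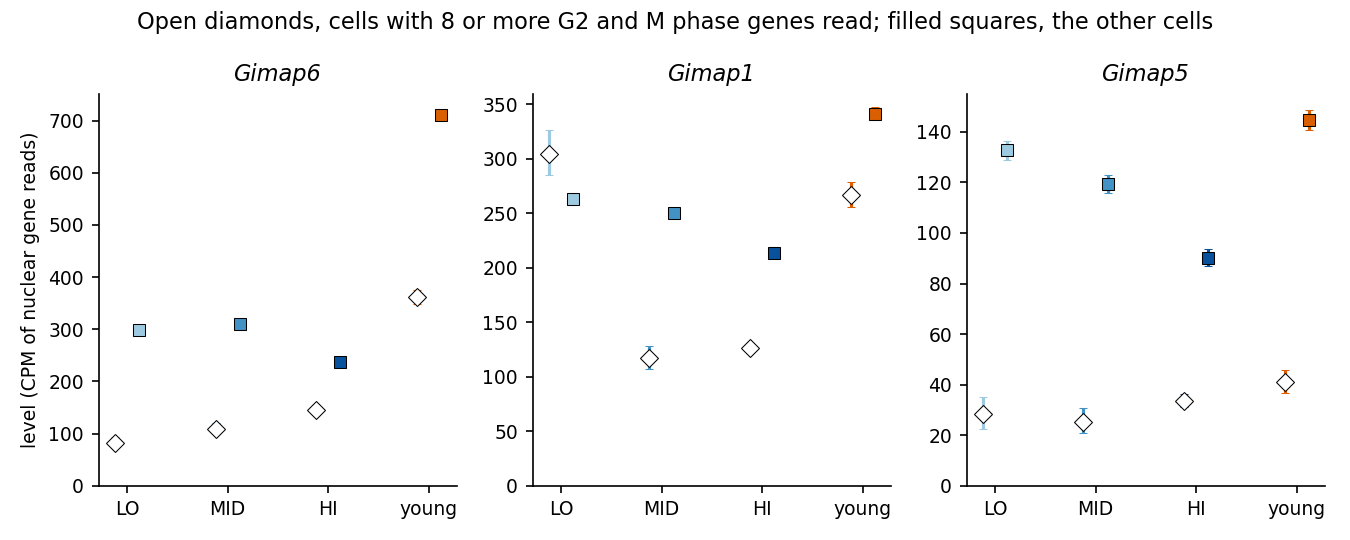
Level of Gimap6, Gimap1 and Gimap5 (CPM) in cells with 8 or more G2 and M phase genes (open diamonds) and in the other thinned cells (filled squares), by group, with exact 95% Poisson bars for counting error. Gimap5 was lower in the cycling cells of all 4 groups; in LO this class holds 5 cells, among which Gimap1 was 304.7 CPM against 263.2 CPM in the other LO cells.

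Cell-to-cell co-variation was examined among the 5 members with enough reads, within each of 8 sets (4 groups by 2 tables, 57 to 69 thinned cells each). Spearman rho averaged 0.09 over the 10 pairs (SD 0.04 over the 8 sets, 0.05 to 0.17), which is weak in counts this sparse. Gimap6 and Gimap5 stood apart, at a mean of 0.31 (0.11 to 0.41) and above 0 in 8 of 8 sets, and each was the gene with the highest mean rho with the other among the 9830 genes compared. The pair averaged 0.28 in old and 0.38 in young sets. Without cycling cells it was 0.28, and on CPM of all reads 0.28. The genes lie 38 kb apart on opposite strands, with Gimap7 and Gimap1 between them. The 50-base stretches that Gimap5 shares lie with Gimap3 and Gm28053. The cause of the co-variation was not tested. Points share the cell's depth, its library and its cycle phase. The neighbours Gimap1 and Gimap5, 2.40 kb apart, had a mean of 0.12, and Gimap9 with Gimap1 and Gimap9 with Gimap5 were both at -0.01.

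**Figure D5:**
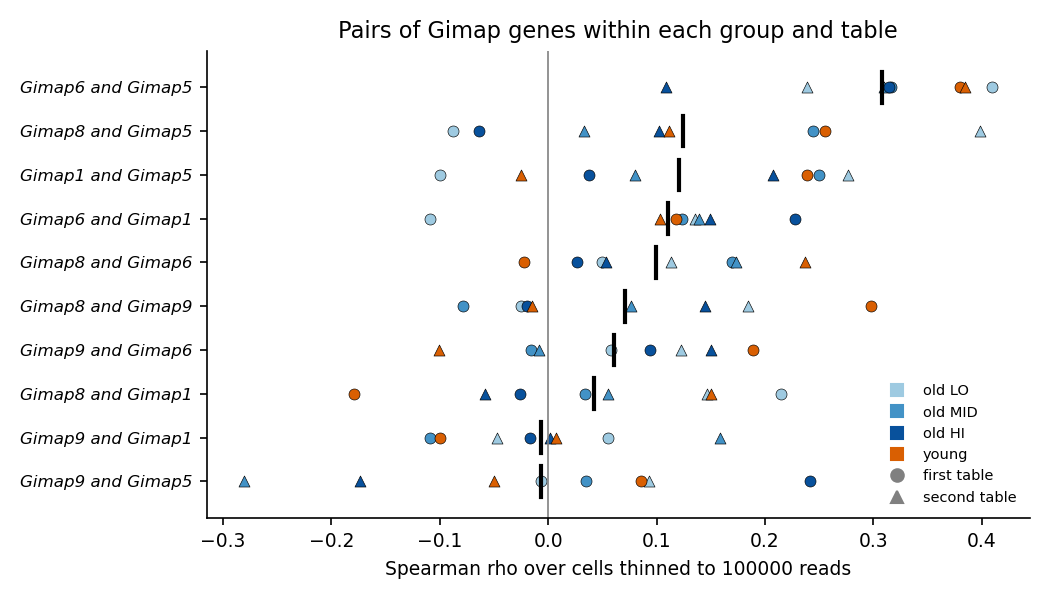
Spearman rho for each of 10 pairs of Gimap genes within the 8 sets of thinned cells (circles and triangles, first and second table, coloured by group), with a black bar at the mean. Gimap6 with Gimap5 averages 0.31, and every other pair has a mean at or below 0.12.

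The genes whose reads followed the summed Gimap reads most closely over the 8 sets were, of 9826, H2-D1 (mean rho 0.34), Ifitm1 (0.31), Itm2b (0.30), Myof (0.28), Tcp11l2 (0.28), Pik3ip1 (0.27), Ypel3 (0.27), B2m (0.26), Pqlc3 (0.26) and Gimap1os (0.25). H2-D1 and B2m encode the heavy and light chains of MHC class I, and Pik3ip1 restrains PI3 kinase. Each of the 10 was above 0 in 8 of 8 sets, as were 130 of the 9826 genes in all. The 10 were taken for their high mean over these same sets, so nothing is read from their signs. Gimap1os also shares exon bases with Gimap1, which is part of the sum. The median gene was at -0.03 and the 95th percentile at 0.09. At the other end, chosen after their values were seen, stood the DNA replication and topoisomerase genes Top2a (-0.31), Dna2 (-0.30) and Lig1 (-0.29). Of cell measures, the family's reads went with the mitochondrial percent (mean rho 0.23, 0.13 to 0.35) and against the number of genes with a read (-0.21). With eGFP reads of the transgene per nuclear gene read, the mean rho was 0.15 (-0.02 to 0.38). It was -0.08 with nuclear gene reads and -0.12 with the count of progenitor markers read.

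Genes reported as partners of GIMAP proteins did not share the lower level in old cells. All 13 passed the level filter, with a median of 0.11 in old against young, against 0.02 over all genes. By the size rule 0 of them were called, where 0.672% of genes were lower and 1.65% higher. So few genes met the rule that a list this short would often hold 0. Bcl2, which blocks apoptosis, was highest at 0.80 (0.87 and 0.72), with 142.4 CPM in old and 81.8 CPM in young cells, and Bax, which promotes it, was at 0.33. Mcl1 and Gsk3b were lowest at -0.17 and -0.20, and Map1lc3b, the LC3 gene itself, was at -0.05. In HI against LO, 0 of 13 met the rule, by which 0.784% of genes were lower and 2.48% higher. The median there was -0.01, with Bcl2l11 at -0.63 and Bcl2l1 at 0.30.

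The IRG and GBP families, other GTPases of immunity, were set beside the Gimap genes. Of 18 measured, 11 passed the filter, with a median of -0.08 in old against young, against 0.02 over all genes. By the size rule 0 of the 11 were called, where 0.672% of genes were lower and 1.65% higher. Among those past the filter Gbp4 was highest at 0.55 (0.88 and 0.22) and Gbp5 lowest at -0.73 (-0.26 and -1.19). In HI against LO the median was -0.51 against 0.02 over all genes. Gbp5, with 26.9 CPM in HI and 54.4 CPM in LO cells, met the rule at -1.05 (-0.73 and -1.36), as lower, as did 0.784% of genes. Gbp4 stood at -1.61 without meeting it. Of 23 regulators of lymphoid fate, 17 passed the filter. Id2 was higher in old cells at 1.23 (0.83 and 1.63) and met the rule, against 1.65% of genes that were higher by it, while Ikzf2 was at -0.86 (-0.80 and -0.93). Runx3 was higher in HI than in LO cells at 1.32, against 2.48% of genes.

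Markers of other cells were measured beside the age difference. The summed level of the 15 T cell markers was 30.3, 25.4 and 28.9 CPM in LO, MID and HI cells and 26.2 CPM in young cells, with Cd3e at 0 in LO, Cd3g, Trbc1, Trbc2 and Il7r in MID, Trbc1 and Trbc2 in HI, and Cd3e, Trbc2 and Il7r in young cells. The 10 B cell markers summed to 60.9, 52.7 and 64.9 CPM in LO, MID and HI and 88.5 CPM in young cells, and among those at 0 were Igll1 in every group, Vpreb3 in MID and HI, Ms4a1 in MID and young, and Cd79a in young cells. The 10 NK cell markers summed to 122.7, 114.3 and 94.9 CPM in LO, MID and HI and 29.6 CPM in young cells. Of that sum Klrb1c, named after its values were seen, held 70 CPM in old and 1.46 CPM in young cells and Nkg7 39.6 and 28.4 CPM, while each of the other 8 stood below 0.2 CPM in both ages. The 10 dendritic cell markers summed to 1358, 1717 and 1260 CPM in LO, MID and HI and 465.7 CPM in young cells, and 5 of the 7 past the filter were higher in old cells by the size rule: Clec9a and the MHC class II genes Cd74, H2-Ab1, H2-Aa and H2-Eb1. The 10 megakaryocyte markers summed to 2104, 1707 and 1749 CPM in LO, MID and HI and 1217 CPM in young cells, and 3 of the 9 past the filter, Itga2b, Vwf and Itgb3, were higher by it. The 10 markers of multipotent and lymphoid primed progenitors summed to 604.5, 606.5 and 635.4 CPM in LO, MID and HI cells. In young cells their sum was 868.1 CPM. Ly6d was at 0 in LO, MID and young, Il7r in MID and young, and Cd48 in LO cells. Like the family sum, the marker sum was lower in old than in young cells. Among the old groups it was highest in HI cells, where the family sum was lowest. Within groups and tables, summed Gimap reads and the count of these markers read in a cell had a mean Spearman rho of -0.12 (-0.29 to 0.12). In that list Cd34 and Plac8, named after their values were seen, met the size rule as lower in old cells at -1.08 and -1.01. Without cells with 3 or more of these markers the family difference between old and young was -1.15 and that of Gimap6 was -1.42. The part of these cell markers in the results was not tested.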

How the data were processed

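Libraries were made from sorted single cells by Smart-seq2 with changes, per the labels' protocols. The values are raw counts of reads for each gene, deposited by the authors in 2 tables and holding no molecular identifiers. The build mm10 and the tools featureCounts 2.0.0, Subread, DESeq2 and STAR 2.7.3a appear in the submitters' processing notes, with no role given. A cell was kept if 20% or less of its reads were mitochondrial and it had 50000 nuclear gene reads and 1000 genes; 30 of 563 were dropped. No doublets were called, since cells were sorted singly. Counts were summed per group and table and scaled to CPM with TMM factors (edgeR 4.0.16, R 4.3.3); the old level averages the 3 old groups. Python 3.11.15 with NumPy 2.4.6, pandas 2.3.3 and SciPy 1.17.1 did the rest, and the steps were tested on simulated data. Shares use cells thinned to 100000 reads, which leaves out 32 kept cells. Intervals are 95% exact Poisson or Clopper-Pearson and cover counting error only, and the limit for a share of 0 is 3 counts.

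Named genes are all members, neighbours within 300 kb, up to 2 highest and 2 lowest of each list, the 10 most alike in pattern, and Procr, Mki67, Selp and Map1lc3b; other named genes are list examples or markers. Members and lists were chosen with earlier results of these data known. Alternatives were other scalings (DESeq2 1.42.0 size factors), pseudocounts of 0.1 and 10 CPM, other filters, cells left out, and single tables.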

Additional observations from a re-analysis of the deposited data

How the results depend on the processing

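No paired analysis was possible because the numbers in the labels only count cells. The tables, each of which holds all 4 groups, are the one shared block, and differences were taken within them. With 1 sample per group and table, leaving out a replicate was not run, and each table alone was used instead.

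The count of members that met the size rule as lower in old than in young cells was 2 as reported and 1 with a pseudocount of 10 CPM, with a filter of 50 CPM and 25% of cells, without cells with 3 or more lymphocyte markers, in the first table alone and when scaled to spike-in reads. The family difference between old and young was -0.69 per spike-in read and -1.15 without cells with 3 or more progenitor markers, both settings added after the data were seen. HI against LO was -0.0202 per spike-in read, and MID against LO was 0.14 without the cells with progenitor markers. Thinned to 50000 reads, 69.7% of old cells had reads of 3 or more members. The causes were not tested. The other 90 recomputed values stayed within 1 SD between the tables for the family differences, 1 SD over the sets for co-variation, the interval for shares and 1.5 times for counts. The first of these is wide for HI against LO, which was -0.29 in the first table alone and -0.74 in the second. Of the values for single members, 74 moved by more than such a margin and 294 did not. Gimap6 between old and young ranged from -1.11 to -1.42 over its settings. Shares of cells depend on depth: Gimap8 was read in 44% of MID cells unthinned, 33.1% at 100000 reads and 26.9% at 50000 reads. Those of Gimap4 in young cells were 11.9%, 10.2% and 10.4%.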

Other observations

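Selp, which encodes P-selectin and serves as a marker of old HSCs, had 203.5 CPM in old and 24.9 CPM in young cells, a log2 difference of 3.19, which is opposite in direction to the Gimap family. Among the old groups both were lower in HI than in LO cells, with Selp at 155.9 CPM in HI and 261.1 CPM in LO cells. Further GTPases of the interferon response that were too rarely read to pass the level filter, Mx1 and Mx2, were also lower in old cells, at 0.529 and 3.28 CPM in old and young cells for Mx1, and 5.55 and 22.5 CPM for Mx2. Satb1, a regulator of lymphoid fate that did not pass the filter either, had 2.88 CPM in old and 19.3 CPM in young cells. Mx1, Mx2 and Satb1 were chosen after their values were seen. No hypothesis was tested.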
